A study of Mus musculus with 21 samples.

Results

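Clustered histone genes were taken as every protein-coding gene of the mm9 mouse annotation whose symbol starts with Hist1h, Hist2h, Hist3h or Hist4h. The rule found 67 of 22367 genes, of which 55 lie in the Hist1 cluster on chromosome 13, 9 in the Hist2 cluster on chromosome 3, 2 at Hist3 on chromosome 11 and 1, Hist4h4, on chromosome 6. By product they are 6 linker H1, 19 H2A, 18 H2B, 11 H3 and 13 H4 genes. Binding of the vitamin D receptor (VDR) was mapped by ChIP-seq in colon and in the crypt and villus fractions of the small intestine (SI crypt and SI villus, hereafter crypt and villus) of C57BL/6 mice, with 4 samples per compartment, and open chromatin was mapped by ATAC-seq in the same compartments, with 3 samples each. The ChIP mice are labelled 4 to 6 weeks old, while the study's methods give an older age, and all received 10 ng/g of 1,25(OH)2D3, the hormonal form of vitamin D, by intraperitoneal injection 1 h before collection, and no vehicle-treated ChIP sample or input control entered the peak calling, so assay background at these genes was not measured. The ATAC mice were 90 days old, and whether they were treated is stated differently in the labels and in the study's methods. The 3 compartments are preparations of colon epithelium and of small intestinal fractions, so a change in the cells present and a change per cell cannot be told apart. The labels do not tie a sample to a single animal, so spread between samples may be partly technical.

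Clustered histone genes supply the bulk of new chromatin protein during S phase. The core histones H2A, H2B, H3 and H4 form the nucleosome and H1 binds the DNA between nucleosomes. These genes are short, mostly lack introns, and make messenger RNAs that end in a stem-loop in place of a poly(A) tail. VDR is a ligand-activated nuclear receptor that, together with RXR, classically binds the DR3 element, a direct repeat of a short hormone receptor site with a spacer of 3 bases. Dividing epithelial cells of the intestine reside in the crypts, and villus cells have left the cell cycle.

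The sequences shown next were read from the mm9 assembly at histone loci with strong VDR peaks. In colon and crypt, over the short members as a set, ATAC peaks lay mostly around the start and VDR peaks over the gene body. The lines shown do not each carry that contrast. The pooled colon VDR peaks at Hist1h1e and at the Hist1h2ac and Hist1h2bc pair also covered the upstream DNA shown. The Hist2h4 site lies upstream of the start and outside any ATAC peak. Hist1h1e encodes an H1 linker histone and had the strongest VDR peak among members in the authors' processed colon list. The first line gives the 200 bases upstream of its start (chr13:23714372-23714571, minus strand), with the H1 box AAACACA, the CCAAT box and the TATA box TATAAA in capitals. The second line gives 200 bases around the pooled colon VDR summit (chr13:23714085-23714284, minus strand), of which 200 lie in annotated coding sequence and none is in capitals because no DR3 element was found. Hist1h2ac and Hist1h2bc, an H2A and an H2B gene, are transcribed away from each other, and the third line gives the 250 bases between their starts (chr13:23775818-23776067, plus strand), with the CCAAT box, the TATA box and the octamer ATGCAAAT in capitals on either strand. The fourth line gives 200 bases around the VDR summit upstream of the H4 gene Hist2h4 (chr3:96067724-96067923, plus strand), with the letters nearest to a DR3 element in capitals, a loose match of a kind that many VDR summit windows hold.
Hist1h1e upstream: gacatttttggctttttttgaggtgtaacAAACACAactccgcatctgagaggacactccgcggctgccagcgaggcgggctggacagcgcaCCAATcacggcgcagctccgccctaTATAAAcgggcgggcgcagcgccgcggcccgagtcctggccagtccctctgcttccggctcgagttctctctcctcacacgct
Hist1h1e VDR summit: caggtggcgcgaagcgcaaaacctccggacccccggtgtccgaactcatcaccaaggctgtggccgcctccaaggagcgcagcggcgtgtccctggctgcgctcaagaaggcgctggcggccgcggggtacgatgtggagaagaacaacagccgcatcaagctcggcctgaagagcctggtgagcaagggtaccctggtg
Hist1h2ac and Hist1h2bc: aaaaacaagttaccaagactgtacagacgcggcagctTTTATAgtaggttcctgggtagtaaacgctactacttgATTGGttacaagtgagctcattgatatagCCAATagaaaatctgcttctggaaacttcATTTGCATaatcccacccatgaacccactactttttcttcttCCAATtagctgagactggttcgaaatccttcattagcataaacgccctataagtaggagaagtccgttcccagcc
Hist2h4 upstream VDR summit: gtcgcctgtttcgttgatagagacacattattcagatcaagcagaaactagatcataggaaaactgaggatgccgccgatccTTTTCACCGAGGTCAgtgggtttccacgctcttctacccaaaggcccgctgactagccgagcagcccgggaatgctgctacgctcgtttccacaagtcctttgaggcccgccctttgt

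The ChIP libraries held 10588783 to 17970894 fragments, or 3100376 to 14716273 after duplicates were removed, and gave 1138 to 13382 VDR peaks. Crypt replicate 1 stood apart, with the most peaks of the 12 libraries from the fewest deduplicated fragments. Villus replicate 3 had 1539 peaks, against 3780 to 10387 in the other villus samples. The ATAC libraries gave 21271 to 57827 peaks each. As a check of the labelled tissue, all 5 epithelial markers had a pooled ATAC peak in every compartment, 5 of 5 proximal small intestinal markers did so in crypt and villus against 3 in colon, and 4 of 5 colon markers did so in colon against 2 in each small intestinal fraction. Of 5 crypt markers 2 had an ATAC peak in colon and 4 in each small intestinal fraction, and of 5 villus enterocyte markers 4 had one in colon and 5 in each small intestinal fraction. Stromal markers had an ATAC peak at 2 of 5 genes in colon and 5 of 5 in both small intestinal fractions, and blood cell markers at 2, 2 and 3 of 5 in colon, crypt and villus, and the part of these cells in the values that follow was not tested.

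In colon and crypt most clustered histone genes had a VDR-binding peak within 1 kb. In the authors' processed peak lists, which were called on the pooled reads of each compartment, 42 of 67 members had a VDR peak in colon (62.7%), where 40.4% of all protein-coding genes did. In crypt 42 of 67 had one (62.7%), beside 30.1% of all genes. In villus 32 of 67 had one (47.8%), beside 35.5% of all genes. In these lists VDR peaks were thus more common at histone genes than at genes at large in every compartment, least so in villus. A peak was counted anywhere over a gene or within 1 kb of it, so these shares of all genes were not matched for gene length. At a −log10 q of at least 5 the villus count was 18 (26.9%), beside 26.4% of all genes, so in the processed list the villus excess rested on weaker peaks. Peaks left out of that list, described below, were not counted at this threshold, and they include the strongest villus peak near members. The processed lists held 38, 35 and 24 distinct VDR peaks near members in colon, crypt and villus, because neighbouring genes share peaks. A pooled VDR peak was present in all 3 compartments at 31 members, and 10 members had one in colon and crypt and not in villus. These 10 were the H1 gene Hist1h1b, the H2A gene Hist1h2af, the H2B gene Hist1h2bb, the H3 genes Hist1h3a, Hist1h3c, Hist1h3g and Hist1h3i, and the H4 genes Hist1h4a, Hist1h4f and Hist1h4j. A peak in a single compartment was seen at Hist1h4b in colon, Hist1h2al in crypt and Hist1h1a in villus, and none of the 3 was called in 2 or more samples.

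Open chromatin was closer to the background of all genes in the same lists, again not matched for gene length. An ATAC peak lay within 1 kb of 46 members in colon (68.7%), beside 59.4% of all genes, of 47 in crypt (70.1%), beside 67.9%, and of 47 in villus (70.1%), beside 64.8%. Among members with an ATAC peak, a VDR peak was also present at 41 of 46 in colon (89.1%), 42 of 47 in crypt (89.4%) and 32 of 47 in villus (68.1%). The same shares over all genes with an ATAC peak were 63%, 43% and 53.1%. The VDR peak itself overlapped an ATAC peak at 41 members in colon, 41 in crypt and 32 in villus, beside 25.8%, 21.8% and 29.6% of all genes.

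The processed lists held no ATAC peak in any compartment at 20 members. In genome order the first 5 were Hist2h2aa2, Hist2h2aa1, Hist2h3c1, Hist2h4 and Hist2h3b. For 17 of the 20 the MACS2 tables that the authors deposited beside the lists did hold peaks, which had been left out of the processed lists. Of the VDR peaks near members, the lists left out 22 of 60 in colon (36.7%), 19 of 54 in crypt (35.2%) and 16 of 40 in villus (40%). Over all VDR peaks they left out 4.18%, 5.83% and 5.07%. The study describes a filter against known artefact-prone regions of mm9. Whether the left-out peaks lie in such regions was not tested, because the region list was not used here. In total 21 members had a left-out VDR or ATAC peak, among them all but 3 of the 9 Hist2 genes, Hist4h4, and 14 Hist1 genes such as Hist1h1c, Hist1h3e and Hist1h4c. Many of these genes are close copies. A median of 62.9% of their 69-base windows, the longest ATAC read length in the file headers, also occurred elsewhere in mm9, against 36.2% in the other 46 members. The share reached 100% at Hist2h2aa1, Hist2h2aa2, Hist1h2ao, Hist1h2ap, Hist1h2bq and Hist1h2br, so reads at such pairs could have come from either copy.

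With every peak of the MACS2 tables counted, almost all members had a VDR peak in colon and crypt. A VDR peak then lay within 1 kb of 61 members in colon (91%, beside 41.4% of all genes), 61 in crypt (91%, beside 31.2%) and 49 in villus (73.1%, beside 36.7%). An ATAC peak lay near 64 members in each compartment (95.5%), beside 61.1%, 69.1% and 66.1% of all genes in colon, crypt and villus. Counted within 1 kb of the start alone, VDR peaks lay at 45, 45 and 33 of the 51 members of at most 1000 bp. Of all 22367 genes, 5220, 4141 and 5691 had a VDR peak there. ATAC peaks lay there at 48 of these 51 members in each compartment, beside 11368, 12826 and 12072 of all genes. The 3 members with no pooled ATAC peak in any table were Hist1h1t, Hist1h2ba and Hist1h2aa, which encode histones known from the testis. These 3 also had no pooled VDR peak, and the only other member without one was Hist3h2ba.

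Single samples, whose peak lists had not been filtered, gave the same contrast with all genes. In colon, VDR peaks were called near 34, 42, 52 and 40 members in replicates 1 to 4, or 50.7%, 62.7%, 77.6% and 59.7% of members beside 4.93%, 12.8%, 16.2% and 24.1% of all genes. In crypt they were called near 57, 21, 32 and 52 members, or 85.1%, 31.3%, 47.8% and 77.6% beside 32.2%, 5.2%, 3.16% and 7.26% of all genes. In villus they were called near 27, 21, 4 and 16 members, or 40.3%, 31.3%, 5.97% and 23.9% beside 24%, 16.3%, 3.33% and 11.5% of all genes. The share of members was above the share of all genes in each of the 12 samples. The ratio of the 2 shares was 2.48 to 10.3 in colon, 2.64 to 15.1 in crypt and 1.68 to 2.08 in villus, so the excess at histone genes was lowest in the villus samples. Member counts did not overlap between colon (34 to 52) and villus (4 to 27), while they did between crypt (21 to 57) and villus. The shares of all genes overlapped in every pair of compartments. ATAC peaks were called near 59, 62 and 64 members in colon replicates 1 to 3, beside 50.7%, 54.5% and 56.7% of all genes. They were called near 59, 57 and 63 members in crypt, beside 63.9%, 58.1% and 65.5%, and near 64, 62 and 61 in villus, beside 61.9%, 60.6% and 56.5%, so the ATAC samples differed little at these genes. Counted over only the 46 members with no left-out peak, VDR peaks were called near 18, 25, 32 and 25 in colon (39.1% to 69.6%) and near 36, 12, 17 and 33 in crypt (26.1% to 78.3%), each above the share of all genes in that sample. In villus they were called near 18, 13, 2 and 5 of the 46, or 39.1%, 28.3%, 4.35% and 10.9%. Villus replicate 4 was then below the 11.5% of all genes, so the share was above that of all genes in 11 of the 12 samples, and colon (18 to 32) and villus (2 to 18) were no longer separate.

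**Figure D1:**
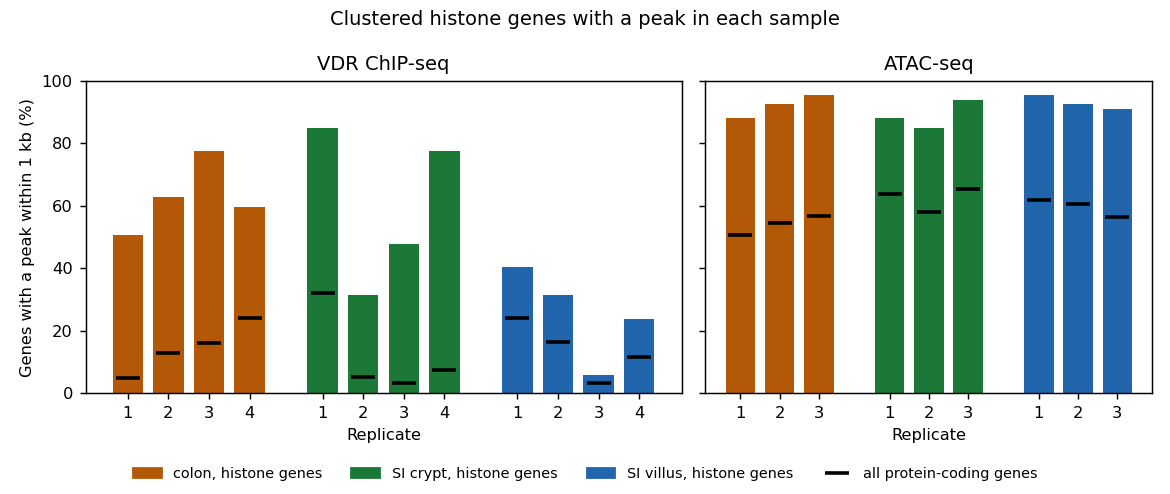
Percent of the 67 clustered histone genes (bars) and of all 22367 protein-coding genes (black dashes) with a peak within 1 kb in each sample, for VDR ChIP-seq (left, 4 replicates per compartment) and ATAC-seq (right, 3 replicates). The bar lies above the dash in all 21 samples, and the VDR bars range from 5.97% in villus replicate 3 to 85.1% in crypt replicate 1.

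Crypt replicate 1 was the library with the most members called, so the crypt result was also counted without it. Of the 42 members with a processed crypt VDR peak, 39 had that peak called in at least 1 crypt sample (58.2%), beside 23.4% of all genes. With replicate 1 set aside, 33 members remained (49.3%), beside 8.28% of all genes, and 20 had the peak in at least 2 of the other 3 samples (29.9%), beside 3.91%. The pooled peaks themselves still contain the reads of replicate 1, which cannot be removed from these files. The 6 members called by replicate 1 and by no other crypt sample were the H2A gene Hist1h2al, the H2B gene Hist1h2bh, the H3 genes Hist1h3a, Hist1h3f and Hist1h3i, and the H4 gene Hist1h4a. Hist1h3f also has a left-out peak that other crypt samples called. Hist1h4i, Hist1h4f and Hist1h2bb had a pooled peak called in no single crypt sample. In all peaks of the MACS2 table the counts were 58 members with any sample and 52 without replicate 1, beside 24.5% and 8.92% of all genes. In colon 35 members had their processed peak called in a sample, beside 26.7% of all genes, and 28 in at least 2 samples, beside 14.3%. In villus the numbers were 18, beside 24%, and 9, beside 13.6%, so with sample support the villus share of members (26.9% and 13.4%) was close to that of all genes in the processed list. These shares were not matched for gene length. In all peaks of the MACS2 table, 32 members had sample support in villus (47.8%), beside 25.1% of all genes. In at least 2 samples 18 did (26.9%), beside 14.5%.

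By histone type, the linker H1 genes split into members with and without VDR peaks. Processed VDR peaks lay near 3 of 6 H1 genes in each compartment (50%), beside 40.4%, 30.1% and 35.5% of all genes in colon, crypt and villus, and the MACS2 tables added Hist1h1c. Hist1h1e, Hist1h1d and Hist1h1c were called in 10 to 12 of the 12 samples. Hist1h1b was called in 4 colon and 3 crypt samples and in no villus sample, whereas Hist1h1a and the testis gene Hist1h1t were called in none. Among the core histones, processed colon VDR peaks lay near 12 of 19 H2A, 12 of 18 H2B, 8 of 11 H3 and 7 of 13 H4 genes, or 63.2%, 66.7%, 72.7% and 53.8%, each above the 40.4% of all genes. In crypt they lay near 13, 12, 8 and 6 genes of these types, or 68.4%, 66.7%, 72.7% and 46.2%, beside 30.1% of all genes. In villus they lay near 11, 11, 4 and 3, or 57.9%, 61.1%, 36.4% and 23.1%. In this filtered list the H3 share was close to the 35.5% of all genes and the H4 share below it. However, 4 of the 11 H3 and 6 of the 13 H4 genes had a left-out peak. With all MACS2 peaks counted, the villus shares were 54.5% for H3 and 69.2% for H4, beside 36.7% of all genes. In the processed lists the count went from 13 in crypt to 11 in villus for H2A and from 12 to 11 for H2B. It went from 8 to 4 for H3 and from 6 to 3 for H4. With all MACS2 peaks it went from 18 to 16, 16 to 14, 11 to 6 and 12 to 9 for H2A, H2B, H3 and H4. The difference between types was not tested. Without crypt replicate 1, the members with sample support numbered 3 H1, 12 H2A, 10 H2B, 5 H3 and 3 H4, against 3, 13, 11, 8 and 4 with it.

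By cluster, 38 of the 55 Hist1 genes had a processed VDR peak in colon, 38 in crypt and 28 in villus, or 69.1%, 69.1% and 50.9%, beside 40.4%, 30.1% and 35.5% of all genes. With all MACS2 peaks counted, 50, 50 and 40 of the 55 had one, or 90.9%, 90.9% and 72.7%, beside 41.4%, 31.2% and 36.7%. Of the 9 Hist2 genes 3 had a processed peak in each compartment (33.3%), which was below the share of all genes in colon and near it in crypt and villus, while the tables held one at 9, 9 and 7. The Hist2 genes were called in 6, 9, 9 and 9 of 9 cases in colon replicates 1 to 4, in 9, 6, 9 and 9 in crypt and in 7, 3, 2 and 4 in villus. Hist3h2a had a pooled VDR peak in all compartments and was called in 1 crypt sample, and Hist3h2ba had none. Hist4h4 had a left-out peak of 4.28-fold enrichment in colon, called in 3 of 4 samples.

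**Figure D2:**
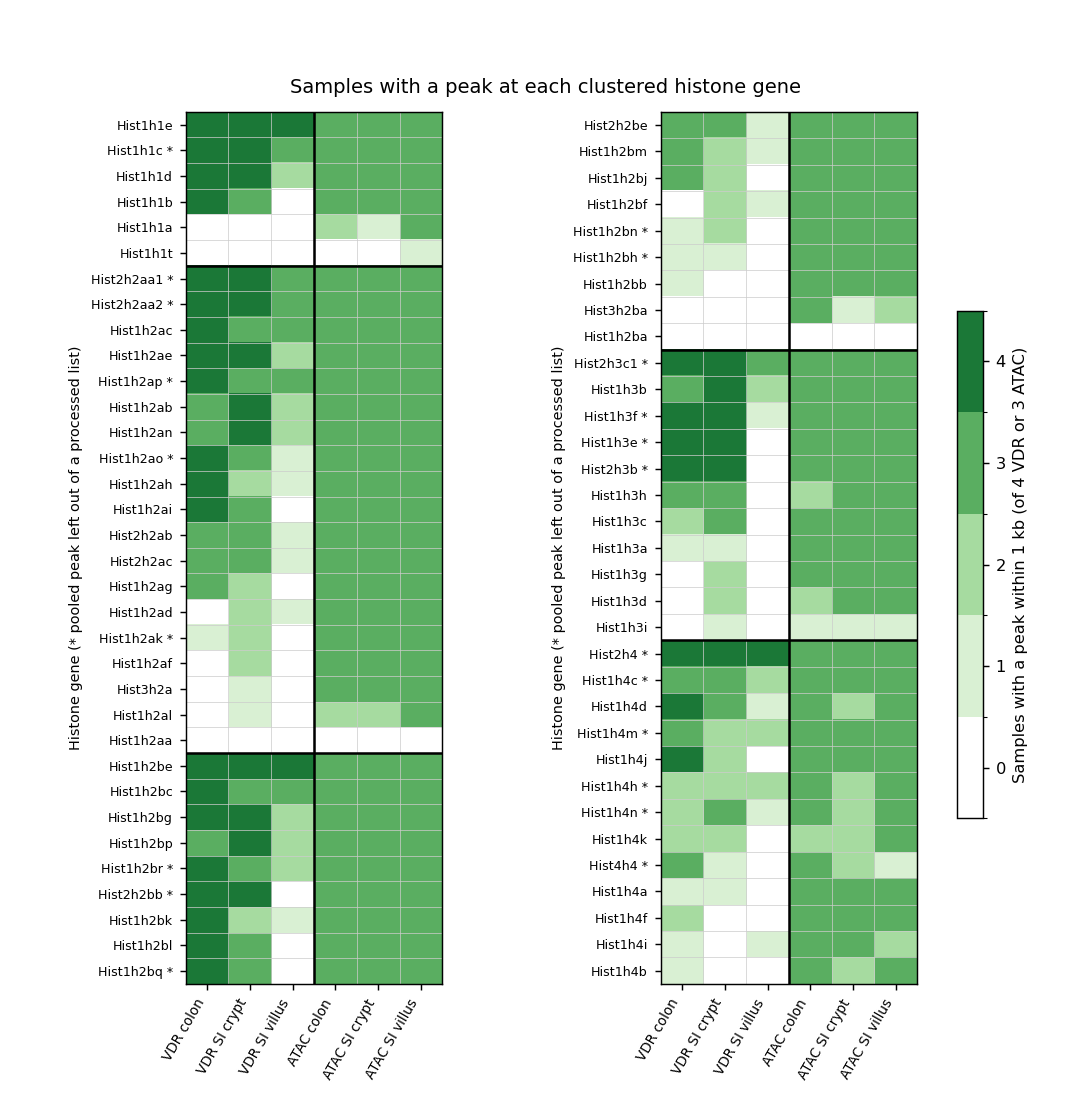
Number of samples with a peak within 1 kb of each of the 67 histone genes, by compartment and assay, out of 4 VDR or 3 ATAC samples, grouped by histone type (H1, H2A and 9 H2B genes at left, the other H2B genes, H3 and H4 at right). Hist1h1e, Hist1h2be and Hist2h4 were called in all 12 VDR samples, 5 members in none, and 51 members in all 9 ATAC samples.

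The strongest peaks in the processed lists lay at a few Hist1 loci. At Hist1h1e, MACS2 fold enrichment over the local background was 9.52, 8.91, 9.89 and 6.01 in colon replicates 1 to 4. It was 12.8, 5.96, 5.27 and 7.45 in crypt and 6.64, 7.58, 3.73 and 7.15 in villus. The compartments overlapped, and the highest value was that of crypt replicate 1. The pooled peaks reached a −log10 q of 119 in colon, 67 in crypt and 28.8 in villus. The start of the H2B gene Hist1h2be lies within 1 kb of this peak, which was therefore counted for both genes.

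At Hist1h1d, another linker histone gene, enrichment was 8.13, 7.51, 9.84 and 8.05 in colon and 9.59, 6.1, 6.35 and 7.09 in crypt. In villus it was 5.38 in replicate 1 and 7.28 in replicate 4, with no peak in the other 2 samples. The pooled peak had a −log10 q of 78, 67.6 and 12.1 in colon, crypt and villus, values that rank peaks within a list and are not compared between lists. The sample values of colon and villus did not overlap, with only 2 villus samples calling a peak.

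At the Hist1h2ac and Hist1h2bc pair, enrichment was 7.29, 6.68, 9.52 and 7.07 in colon. It was 16.3, 6.27 and 7.45 in crypt replicates 1, 2 and 4 and 7.82, 5.51 and 7.76 in villus replicates 1, 2 and 4. Replicate 3 gave no peak there in either crypt or villus, and crypt replicate 1 again lay above the other samples. The pooled −log10 q was 71.9 in colon, 70.6 in crypt and 39.1 in villus.

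Hist1h1c, chosen after its values were seen, had a left-out peak of similar strength. Enrichment was 8.58, 8.33, 11.7 and 6.67 in colon, 10.2, 6.61, 6.4 and 8.96 in crypt and 6.49, 7.97 and 10.8 in villus replicates 1, 2 and 4. The 3 compartments overlapped throughout. In contrast Hist1h2al, seen in crypt only, had 12-fold enrichment in replicate 1 and no peak in any other sample.

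**Figure D3:**
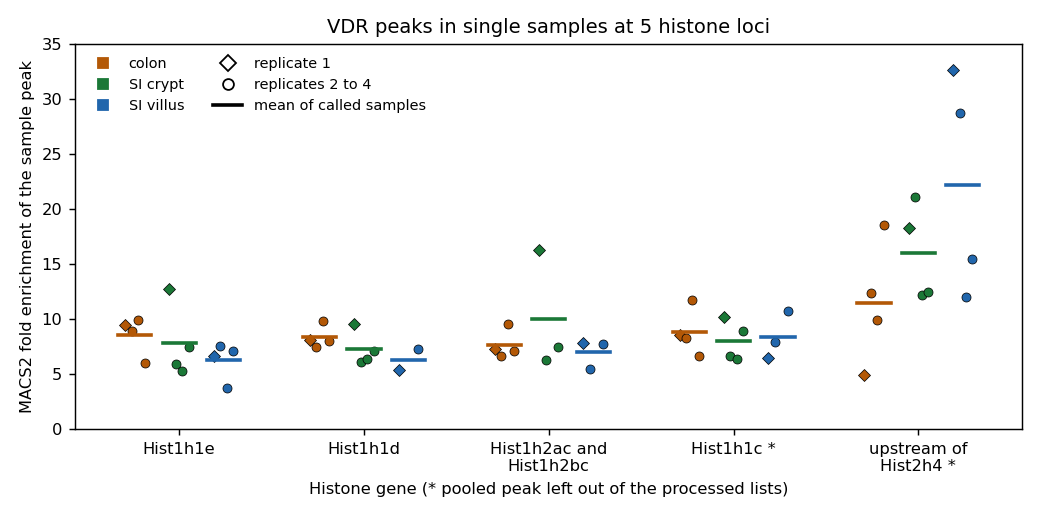
MACS2 fold enrichment of the VDR peak at 5 histone loci in each sample that called one, by compartment, with replicate 1 as a diamond, replicates 2 to 4 as circles and a bar at the mean of the called samples. Compartments overlap at each locus except colon and villus at Hist1h1d, where only 2 villus samples called a peak, and the upstream Hist2h4 site spans 4.93 to 32.7.

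In the processed lists member peaks had a higher −log10 q and were broader than all peaks in colon and crypt and not in villus. The median −log10 q of processed VDR peaks near members was 12.9 in colon, beside 5.98 over all VDR peaks of that list, and 33 of 38 exceeded that median. In crypt it was 22.1 beside 5.97, and 34 of 35 exceeded it. In villus it was 4.9 beside 6.08, and 8 of 24 exceeded it. Median width was 509 bp in colon beside 325 bp for all peaks, 554 bp beside 398.5 bp in crypt and 320 bp beside 383 bp in villus. Fold enrichment differed less, with medians of 4.33 beside 3.36, 5.08 beside 3.84 and 3.84 beside 3.61. With all MACS2 peaks counted, which adds the left-out peaks, the villus medians were close to those of all peaks in −log10 q and width. They were 6.04 beside 6.25 and 383.5 bp beside 385 bp, and median fold enrichment was 3.97 beside 3.61. The median −log10 q was then 15 beside 6.11 in colon and 23.3 beside 6.15 in crypt.

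In colon and crypt VDR peaks lay over the gene body and ATAC peaks over the start, and in villus the separation was less clear. This was read from the MACS2 tables for the 51 members of at most 1000 bp. In colon, 86.3% of them had a VDR peak over the base 200 bp into the gene and 7.84% over the base 100 bp upstream of the start. In crypt these were 84.3% and 13.7%, and in villus 52.9% and 11.8%. For ATAC the order was the other way in colon, with 66.7% at 200 bp inside and 90.2% at 100 bp upstream, and in crypt, with 54.9% and 86.3%. In villus ATAC peaks were broad, with 86.3% and 78.4%, and the position most often covered was 146 bp inside for ATAC and 159 bp inside for VDR. At 400 bp into the gene VDR peaks covered 78.4%, 82.4% and 27.5% of these members in colon, crypt and villus, where ATAC peaks covered 17.6%, 19.6% and 31.4%. Over all genes VDR peaks also were more frequent inside, at 10.3%, 10.9% and 15.8% for 200 bp inside and 5.06%, 5.22% and 7.99% for 100 bp upstream. ATAC peaks over all genes were more frequent upstream, at 32.5%, 26% and 35.8% for 200 bp inside and 41.2%, 42.1% and 42.9% for 100 bp upstream. The order in colon and crypt is thus not particular to histone genes.

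The same position was found in single VDR samples. The number of the 51 members with a peak at 200 bp inside against 100 bp upstream was 14 against 1, 16 against 0, 31 against 0 and 19 against 2 in colon replicates 1 to 4. It was 40 against 2, 7 against 0, 9 against 1 and 28 against 3 in crypt. In villus it was 11 against 1, 6 against 0, 1 against 0 and 7 against 5. The inner position was therefore ahead in all 12 samples, crypt replicates 2 to 4 included, with villus replicates 3 and 4 resting on few genes or a small difference. The strongest VDR summit within 1 kb of the start fell in annotated coding sequence at 29 of 45 members in colon, 27 of 45 in crypt and 20 of 33 in villus. The strongest ATAC summit did so at 2, 5 and 9 of 48. Where both were present, the VDR summit lay further downstream than the ATAC summit at 28 of 45, 27 of 45 and 17 of 33 members. With the processed lists, whose intervals were centred on the summit, VDR peaks covered 200 bp inside at 60.8%, 60.8% and 31.4% of the 51 members and 100 bp upstream at 21.6%, 15.7% and 3.92%.

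Divergent gene pairs gave a shoulder of VDR peaks farther upstream. Among the 67 members, 26 form 13 pairs whose starts face away from each other at most 1000 bp apart, 12 of them H2A with H2B, with 167 to 692 bp between the starts (median 240 bp). Of the short members in such pairs, 14 of 18 in colon, 13 of 18 in crypt and 11 of 18 in villus had a VDR peak 500 bp upstream, which in 12 of the pairs is inside or beyond the start of the partner gene. Of the other 33 short members 2, 3 and 0 had one. At 100 bp upstream, between the starts, the paired members had a VDR peak in 0, 3 and 0 of 18.

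**Figure D4:**
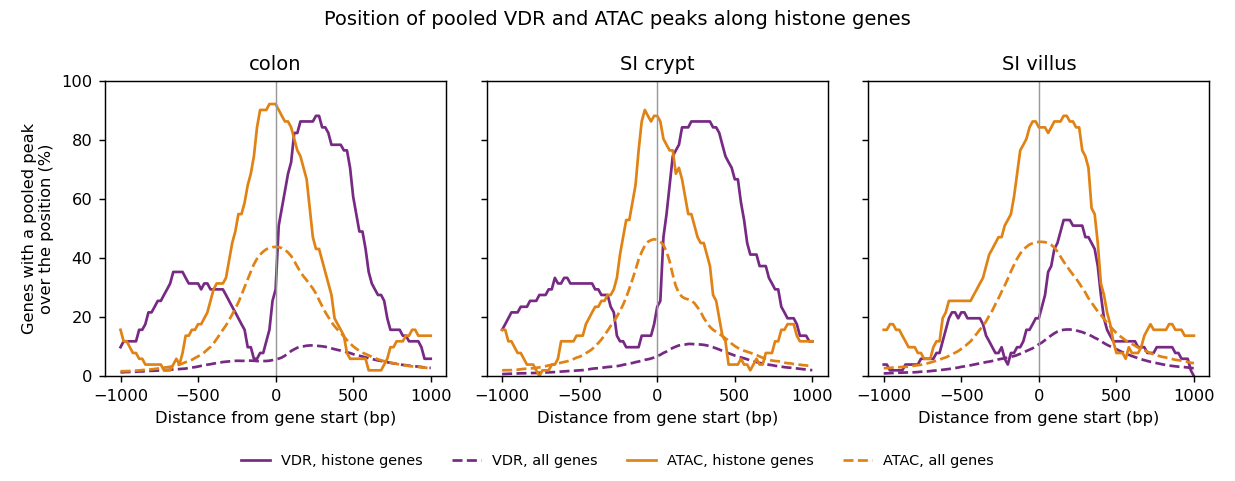
Percent of genes with a pooled peak over each position from 1000 bp upstream to 1000 bp downstream of the start, for the 51 histone genes of at most 1000 bp (solid) and all genes (dashed), with VDR in purple and ATAC in orange, from the MACS2 tables. In colon and crypt the solid VDR line peaks inside the gene and dips where the solid ATAC line is highest, and in villus the VDR line reaches only 52.9% at 200 bp.

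The letters under these peaks did not include the classical VDR element. In 200-base windows around processed VDR summits near members, 0 of 38 in colon, 0 of 35 in crypt and 0 of 24 in villus held a DR3 element on either strand. Of all VDR summit windows 2.05%, 2.31% and 1.69% held one, so counts of this size allow no contrast. Allowing 1 mismatch, a setting added after the values were seen, again gave 0, 0 and 0, beside 10.4%, 9.68% and 8.25% of all windows. With 2 mismatches, also set after the values were seen, 10 of 38 (26.3%), 4 of 35 (11.4%) and 4 of 24 (16.7%) held one, beside 35.2%, 29.8% and 28.9% of all windows. None of the left-out peaks held an exact DR3 element either. No match says only that these letters were not in these windows.

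The start regions, from 250 bases before to 50 after the start, carried the letters known from histone promoters. CCAAT was found on either strand in 57 of 67 members (85.1%), beside 37.9% of all such regions, and it was in all 6 H1, 19 H2A and 18 H2B genes, 10 of 11 H3 genes and 4 of 13 H4 genes. TATAAA was found in 38 members (56.7%), beside 13.4%. The octamer ATGCAAAT was found in 15 members (22.4%), beside 1.73%, of which 7 were H2A and 8 H2B genes. The H1 box AAACACA was found in 5 of 6 H1 genes, beside 6.42% of all regions. In the VDR summit windows near members, CCAAT was found in 3 of 38, 0 of 35 and 0 of 24 in colon, crypt and villus, beside 22%, 20.3% and 20.9% of all VDR windows. TATAAA and ATGCAAAT were found in none of them. A match to these letters is a description and not a measured binding site.

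At Hist2h4 the strongest VDR peak lay upstream of the start and outside any ATAC peak. This locus was singled out after its values were seen, and its peak is among those left out of the processed lists. The VDR peak (chr3:96067592-96068062 in villus) had its summit 590 bp upstream of the annotated start of this H4 gene and outside the span of every member. Its enrichment was 4.93, 12.4, 9.93 and 18.5 in colon replicates 1 to 4. It was 18.3, 21.1, 12.2 and 12.5 in crypt and 32.7, 28.7, 12 and 15.5 in villus. Each of the 12 samples called it, colon replicate 1 lay lowest and villus replicates 1 and 2 highest, and the compartments overlapped. The pooled enrichment was 14.3 in colon, 19 in crypt and 27.9 in villus, and by −log10 q (156, 202 and 355) it was the strongest VDR peak near any member in each compartment, at rank 267 of 23881, 149 of 13488 and 149 of 19044. Crypt replicate 1 did not stand apart here. No pooled ATAC peak overlapped the site in any compartment, and none of the 9 ATAC samples had a peak over its summit. None of its 69-base windows occurred elsewhere in mm9. The letters nearest to a DR3 element, in capitals in the sequence above, differed from it at 2 positions and were centred 11 bases from the summit. A match with up to 2 mismatches is common, as 28.9% to 35.2% of all VDR summit windows held one, so the capitals mark only the nearest letters and not a site.

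The design could not single out a histone gene between compartments by a test over samples. Fisher's exact test per gene on the number of the 4 samples with a peak, with Benjamini-Hochberg adjustment over all genes with a peak in any sample compared, called 0 members and 0 genes of 9341 for colon against crypt, 0 of 8804 for colon against villus and 0 of 9059 for crypt against villus. The background share called was thus 0%. With 4 samples against 4 the smallest two-sided p this exact test can give is 0.0286 before adjustment, so no gene could pass the adjustment unless most genes tested reached that p, and the counts of 0 say nothing on whether calls differed. At an unadjusted p under 0.05 there were 0, 8 and 3 members, beside 0.632%, 1.23% and 0.11% of all genes tested. The 8 were Hist2h3b, Hist2h2bb, Hist1h2bl, Hist1h2ai, Hist1h4j, Hist1h1b, Hist1h2bq and Hist1h3e, each called in 4 of 4 colon and 0 of 4 villus samples. Hist2h3b, Hist2h2bb and Hist1h3e were also the 3 found between crypt and villus, a count that was 9 without crypt replicate 2, beside 0.265% of all genes. By count, 49 members were called in more colon than villus samples and 2 in fewer, where 3582 and 3472 of all genes were. For crypt and villus the members were 50 against 1 and all genes 2886 against 3768. For colon and crypt the members were 22 against 16 and all genes 3976 against 3322. These 3 comparisons share samples. Neighbouring members can share a peak and some are close copies, so counts of members are not counts of independent loci. Among the 8, Hist1h2bl lies next to Hist1h2ai and Hist2h3b next to Hist2h2bb.

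Genes that act on clustered histone genes were looked at in the same lists. Of 18 genes for their transcription and messenger RNA processing, 8, 7 and 10 had a processed VDR peak in colon, crypt and villus, beside 40.4%, 30.1% and 35.5% of all genes, and all 18 had an ATAC peak in each. Npat, the coactivator that gathers at histone loci, had no VDR peak in colon, 4.51-fold enrichment in crypt and 3.81-fold in villus, each called in 1 sample. Slbp, which binds the stem-loop of histone messenger RNA, had 3.07-fold, 3.95-fold and 4.31-fold enrichment in colon, crypt and villus, called in 1, 1 and 0 samples. Coil, a component of nuclear bodies, and Nfya and Nfyc, subunits of the factor that binds CCAAT, also had a peak in all 3 compartments. Support was low, with 0, 0 and 1 samples at Coil, 1, 1 and 2 at Nfya and 1, 1 and 1 at Nfyc. The colon summits of Nfya and Nfyc lay 23717 and 66279 bp downstream of the start. Of 17 histone chaperone genes 6, 7 and 9 had a VDR peak, beside the same 40.4%, 30.1% and 35.5% of all genes. Those with one in all compartments were Asf1a (called in 2, 1 and 1 samples), Nap1l4 (0, 1 and 1) and Supt16h. Supt16h, a subunit of the FACT complex that moves histones during transcription, had 4.48-fold, 5.36-fold and 4.52-fold enrichment, called in 3, 2 and 3 samples.

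Replacement and variant histone genes, which lie outside the clusters, gave 7, 7 and 6 of 13 with a VDR peak. All genes gave 40.4%, 30.1% and 35.5% in colon, crypt and villus. H1f0 of that list was not found in the annotation by this symbol. H3f3b, which encodes the replacement histone H3.3, had the best supported peak. Its enrichment was 3.89 in colon, 5.9 in crypt and 7.47 in villus, called in 4 of 4 samples each, with the summit 3631 to 4052 bp downstream of the start. The strongest ATAC summit at this gene lay 3260 to 3297 bp downstream of the same annotated start. H3f3a, which encodes the same protein, H2afx, H2afy and H2afv also had a VDR peak in each compartment. It was called in 2, 1 and 2 samples at H3f3a, 2, 0 and 0 at H2afy and 1, 1 and 2 at H2afv. H2afx, which encodes the variant phosphorylated at DNA breaks, had 3.94-fold, 4.68-fold and 4.57-fold enrichment, called in 3, 2 and 1 samples. H3f3b and H2afv had their highest fold enrichment in villus, at 10-fold for H2afv, a difference that was not tested.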

How the data were processed

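VDR ChIP-seq (12 samples) and ATAC-seq (9 samples) of mouse colon, SI crypt and SI villus were used as deposited. Per the submitters' processing notes, tools included cutadapt 1.9.1, Bowtie2 2.2.6, SAMtools 0.1.19, Picard 2.18.27, bedtools 2.17.0 and MACS2 2.1.0.20150731, with mm9 as the genome. The authors called peaks with MACS2 in each sample and on pooled reads, without a control and at a q-value of 0.05. The deposited MACS2 tables give each peak's position, pileup signal, fold enrichment ratio, and −log10 p and −log10 q. The authors' processed lists centre each pooled peak on its summit and leave some peaks out. Their 6 sets of differential peaks hold their own comparisons and were not used.

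Genes were the 22367 protein-coding genes of GENCODE vM1 (mm9). A gene had a peak if one overlapped it or lay within 1 kb by at least 1 bp. A pooled peak had support if a sample's peak overlapped it. Calls were tested per gene by Fisher's exact test over samples, and list counts are descriptions beside all genes. Named were the 5 members with the strongest processed VDR peak per compartment, those with peaks in all 3 or in 1 compartment, crypt peaks without replicate 1, members without ATAC peaks (5 names), and genes of fixed lists with a VDR peak in all compartments. The members and lists were chosen with earlier results of these data known. Interval searches and the test were tested on simulated data. Python 3.11.15, numpy 2.4.6 and scipy 1.17.1 were used. Depth limits weak peaks, and alternatives were other windows, thresholds, support rules and left-out samples.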

Additional observations from a re-analysis of the deposited data

Results flagged for a closer look

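Pooled peaks within 1 kb of members that were in the MACS2 tables and not in the processed list of the same compartment were flagged because the lists do not use them. There were 22 such VDR peaks in colon, 19 in crypt and 16 in villus, and 20 such ATAC peaks in colon, 26 in crypt and 21 in villus. They include the upstream Hist2h4 site and the Hist1h1c peak.

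A sample far from the other 3 of its group was flagged in 3 of 57 groups of 4 samples, and chance flags about 1 in 20 groups. At Hist1h4j in colon, VDR enrichment was 10.7 in replicate 3 and 5.3, 4.69 and 5.04 in replicates 1, 2 and 4. At Hist1h2ab in crypt it was 9.6 in replicate 1 and 5.37, 5.07 and 4.77 in replicates 2 to 4. Hist1h3b in crypt had the same peak and the same values, 9.6 in replicate 1 included.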

How the results depend on the processing

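Of 126 alternative values for 18 counts, 120 were within 1.5 times the reported count. At a −log10 q of at least 5, the members with a VDR peak in SI villus numbered 18 in place of 32, and those whose VDR peak overlapped an ATAC peak also numbered 18 in place of 32. With all peaks of the MACS2 tables, an alternative chosen after the data were seen, there were 49 members with a VDR peak in SI villus, beside 36.7% of all genes. The members with sample support then numbered 54 in colon in place of 35 (80.6%, beside 27.7% of all genes). In SI villus they numbered 32 in place of 18 (47.8%, beside 25.1%). Asking for 2 samples left 9 in SI villus. Leaving out SI crypt replicate 1 gave 33 in place of 39. Whether the replicate numbers pair the samples was not settled. The study's methods draw the compartments from 1 group of mice, and the labels do not say that a number marks an animal. Correlations of deviations between same-numbered VDR samples were over 0.1 in 3 of 4 pairs of SI crypt and SI villus (0.0022 to 0.46, 2 best with their own number) and in 0 of 4 pairs each of colon with SI crypt (−0.26 to 0.075) and with SI villus (−0.21 to −0.029). With the replicate number as a block, an exact sign-flip test cannot give a p under 0.125, so its 0 calls, like those of the adjusted test without a block, were fixed by the design. At an unadjusted Fisher p under 0.05, leaving out 1 sample gave 8 to 12 members for colon against SI villus, beside 1.47% to 3.49% of all genes. It gave 3 to 9 for SI crypt against SI villus, beside 0.122% to 0.749% of all genes. For colon against SI crypt it gave 0, beside 0.698% to 2.91%. A window of 5 kb gave 4 for colon against SI villus, beside 1.18% of all genes. The low depth of single VDR libraries and the absence of an input control limit weak peaks, and close gene copies limit which of the copies a peak belongs to.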
